A study of Yarrowia lipolytica with 12 samples.

Results

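The cells compared were *Yarrowia lipolytica* labelled Yl*ngs1*Δ and wild-type cells, both carrying the plasmid pYL27-4NAG and both grown in liquid YNB medium with N-acetylglucosamine (GlcNAc) as the carbon source. The 6 libraries, 3 in each group, are 6 of the 12 RNA-Seq libraries of the study and were taken by their labels. The wild type was PO1a, a strain with leu2 and ura3 mutations, and the mutant is described as an Yl*ngs1*Δ::loxR/P strain. The medium of every group held uracil, no group was given a treatment, and cells were collected at an OD600 of about 0.8. The 4NAG plasmid is a centromeric plasmid with Yl*LEU2* that carries Yl*NAG1*, Yl*DAC1*, Yl*NAG5* and Yl*NGT1* of GlcNAc uptake and breakdown, each driven by the constitutive promoter of the actin gene Yl*ACT1*. Both groups thus held these genes on the plasmid as well, and RNA from the plasmid copies was not told apart. A further 3 libraries of wild-type cells with the empty plasmid pYL27 are given as a reference level. All genes of the count tables were joined on their gene ID, with 0 where a table did not list a gene. The paper states that the mutant with 4NAG grew more slowly than the wild type in this medium, and growth rate and genotype cannot be told apart in these samples. The labels do not say whether the 3 samples of a group were separate cultures or clones, and p-values here speak only of the spread among them, which may be technical. In bulk samples, a change in the share of cells of a form and a change in RNA per cell cannot be told apart.

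*Y. lipolytica* is a yeast that grows as round cells or as filaments and is known for its use of alkanes, lipids and organic acids. In *Candida albicans* the acetyltransferase Ngs1 serves as a sensor of GlcNAc and works at promoters with Rep1, a DNA-binding protein of the Ndt80 family. GlcNAc holds nitrogen as well as carbon: its breakdown gives acetate, ammonium and fructose-6-phosphate. Cells that use another nitrogen or carbon source turn on permeases and breakdown enzymes for it, and many of these genes in yeasts are known to be kept low while a preferred source is at hand.

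Yl*NGS1* (YALI0E20185), the gene named as deleted, had 71.2, 72.97 and 73.6 CPM in the 4NAG wild type. With the vector the level was 75.9, 79.5 and 90.99 CPM. CPM is a gene's count per 1000000 counts of its library, with library sizes scaled by TMM. Replicates 1, 2 and 3 of the labelled Yl*ngs1*Δ cells had 0.0532, 16.6 and 33.9 CPM. Replicate 1 stood at 0.0733% of the wild-type mean, with exact Poisson 95% bounds of 0.00186 and 0.408. Replicate 2 stood at 22.9%, bounds 20.3 and 25.7, and replicate 3 at 46.7%, bounds 42.9 and 50.7. The bounds cover counting error only. Replicate 1 held 1 count of the gene, whereas replicates 2 and 3 held 277 and 560 counts, which goes against their label, so the samples are called the libraries labelled Yl*ngs1*Δ throughout. The fitted change of Yl*NGS1* was not called (log2 fold change −2.096, standard error 1.11, edgeR adjusted p = 0.229). Yl*REP1* (YALI0D24860) had 76.9, 81.4 and 89.8 CPM in the wild type and 68.3, 69.7 and 77.4 CPM in the labelled libraries, and its groups overlapped. Of the 4NAG genes, Yl*DAC1* (YALI0E20163) went from 1272, 1421 and 1270.2 CPM to 596, 651 and 669 CPM and Yl*NAG5* (YALI0E20207), the GlcNAc kinase gene, from 852, 868 and 837 CPM to 1676, 1428 and 1214 CPM. Yl*DAC1* was called lower (log2 fold change −1.05, standard error 0.13, edgeR adjusted p = 0.00305) but not without wild-type replicate 2 or labelled replicate 1, where its log2 fold change lay between −1.12 and −0.997, and Yl*NAG5* stayed under the fold threshold (log2 fold change 0.75).

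Library totals ran from 17585457 to 17773619 counts in the labelled libraries and from 18863469 to 21648468 in the wild type with 4NAG. The labelled libraries differed from each other more than wild-type libraries did. Chi-square per degree of freedom was 255 between labelled replicates 1 and 2, 425 between 1 and 3 and 61.6 between 2 and 3, against 11.1 to 14.4 in the wild type, so no library repeated another. Of the genes called higher, labelled replicate 1 stood farthest from the wild-type mean in 60.8% and replicate 3 in 7.10%. Of the genes called lower, replicate 1 stood farthest in 55.4% and replicate 3 in 7.19%. Over all genes tested these shares were 53.4% and 25.7%. The library with the most Yl*NGS1* counts, replicate 3, was thus nearest to the wild type in 68.2% of the genes called higher and 66.2% of those called lower, against 40.5% of all genes tested. The median ratio to the wild-type mean, with 0.5 CPM added to each level, was 3.06, 2.84 and 2.28 in replicates 1, 2 and 3 for genes called higher and 0.312, 0.364 and 0.448 for genes called lower. The part of the Yl*NGS1* counts in these differences was not tested.

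**Figure D1:**
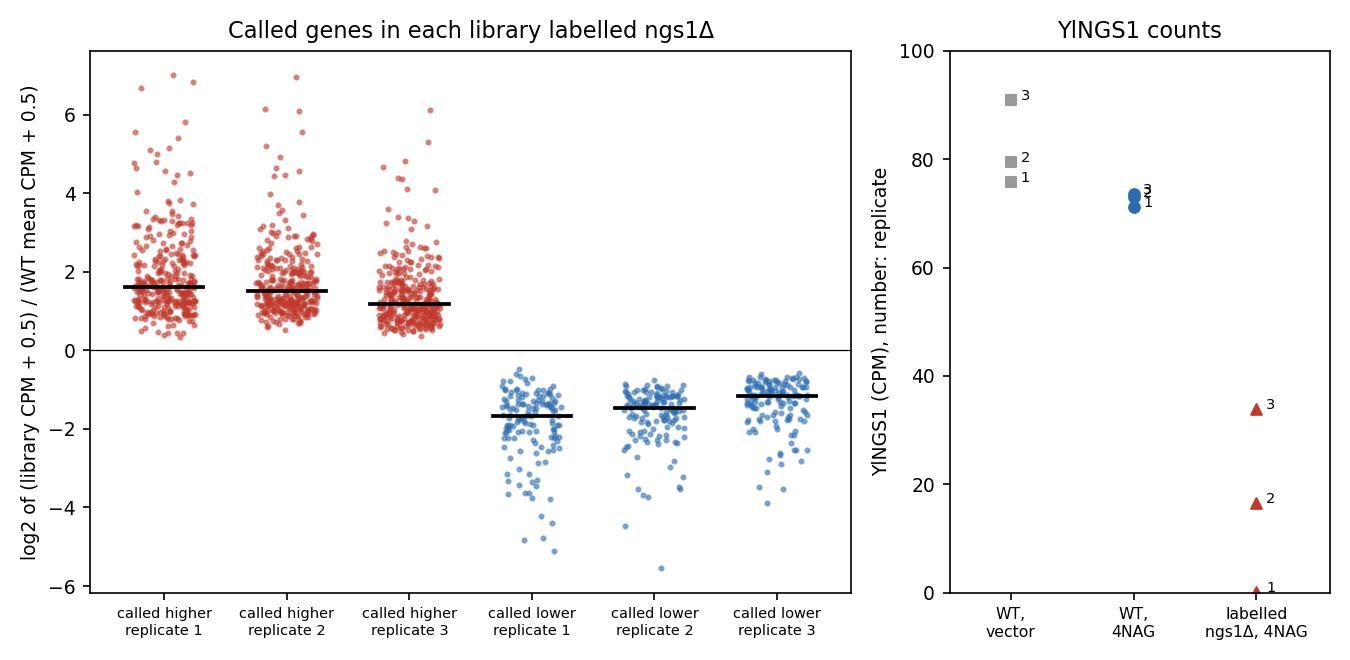
Left: each point is a gene called higher (red) or lower (blue), placed by the log2 ratio of its level in a library labelled Yl*ngs1*Δ to the wild-type mean (0.5 CPM added), with black bars at the medians. Right: Yl*NGS1* in CPM in each library with its replicate number. Medians lie closest to 0 in labelled replicate 3, the library with the most Yl*NGS1* counts (33.9 CPM) of the 3.

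Of 6040 genes tested, 324 were called higher in the libraries labelled Yl*ngs1*Δ (5.36%) and 139 lower (2.30%), or 463 in either direction (7.67%). A call means 2-fold or more with an edgeR adjusted p below 0.05. The median log2 fold change over all genes tested was 0.016. A fit without labelled replicates 2 and 3, which hold Yl*NGS1* counts, keeps only 1 labelled library. Its p-values can rest only on the spread among the wild-type libraries, so only fold changes are given from it. Dropping wild-type replicate 1, 2 or 3 left 180, 177 and 193 genes higher and 83, 71 and 80 lower. Dropping labelled replicate 1, 2 or 3 gave 379, 229 and 385 higher and 143, 81 and 232 lower. The fitted change of no called gene altered its sign when any of the 6 libraries was left out. The tables of transcription factors and of wall proteins in the paper hold 54 of the 463 called genes, and the other 409 are the subject here. Genes were grouped by the descriptions that come with the lists of genes changed in the mutants. The 22 groups hold 203 genes, of which 97 were called higher, 61 lower, 37 were not called and 8 were not tested. The study chose its genes on these samples, so the number of called genes in such a list is no evidence for the list, and only levels, directions and splits within lists are described.

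**Figure D2:**
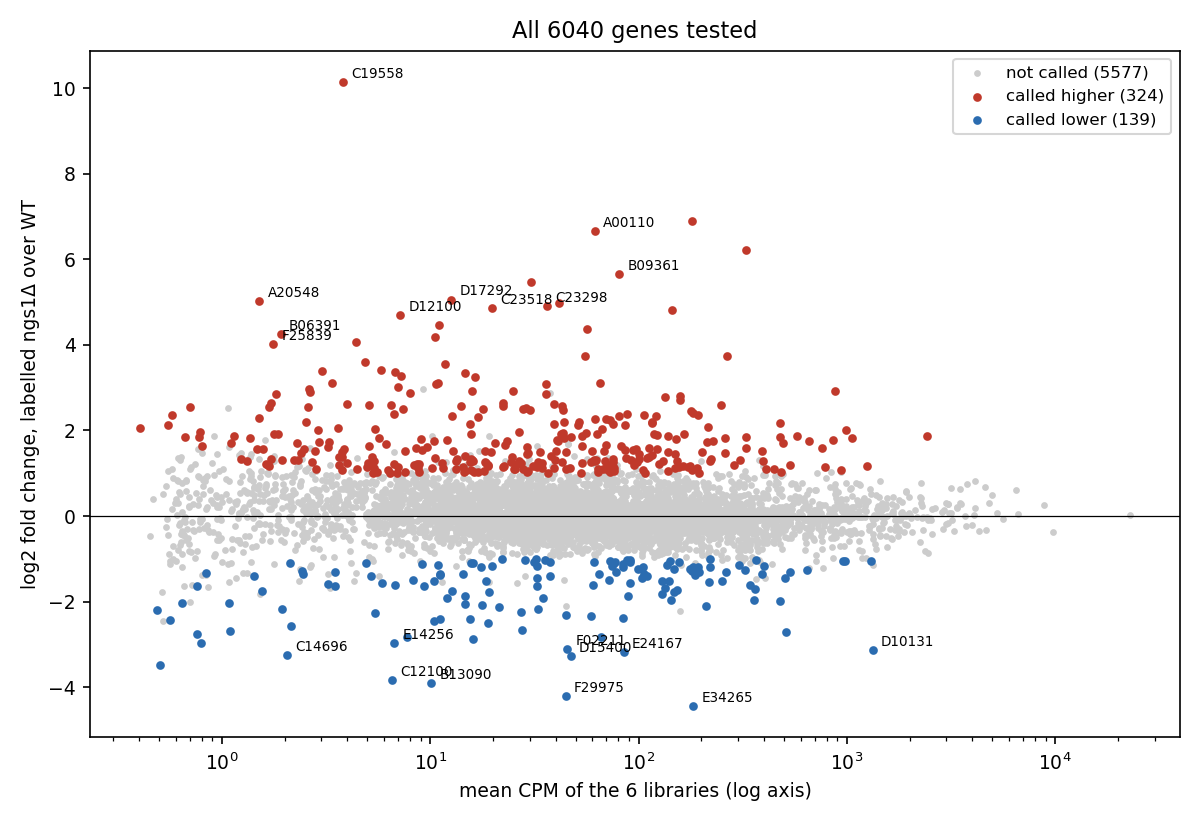
Each point is 1 of the 6040 genes tested, by its mean CPM over the 6 libraries (log axis) and its log2 fold change in the libraries labelled Yl*ngs1*Δ over the wild type, both with 4NAG. Red marks the 324 genes called higher and blue the 139 called lower. The labelled points, with YALI0 left off, are the 10 largest rises and 10 largest falls outside the paper's tables of transcription factors and wall proteins.

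**Figure D3:**
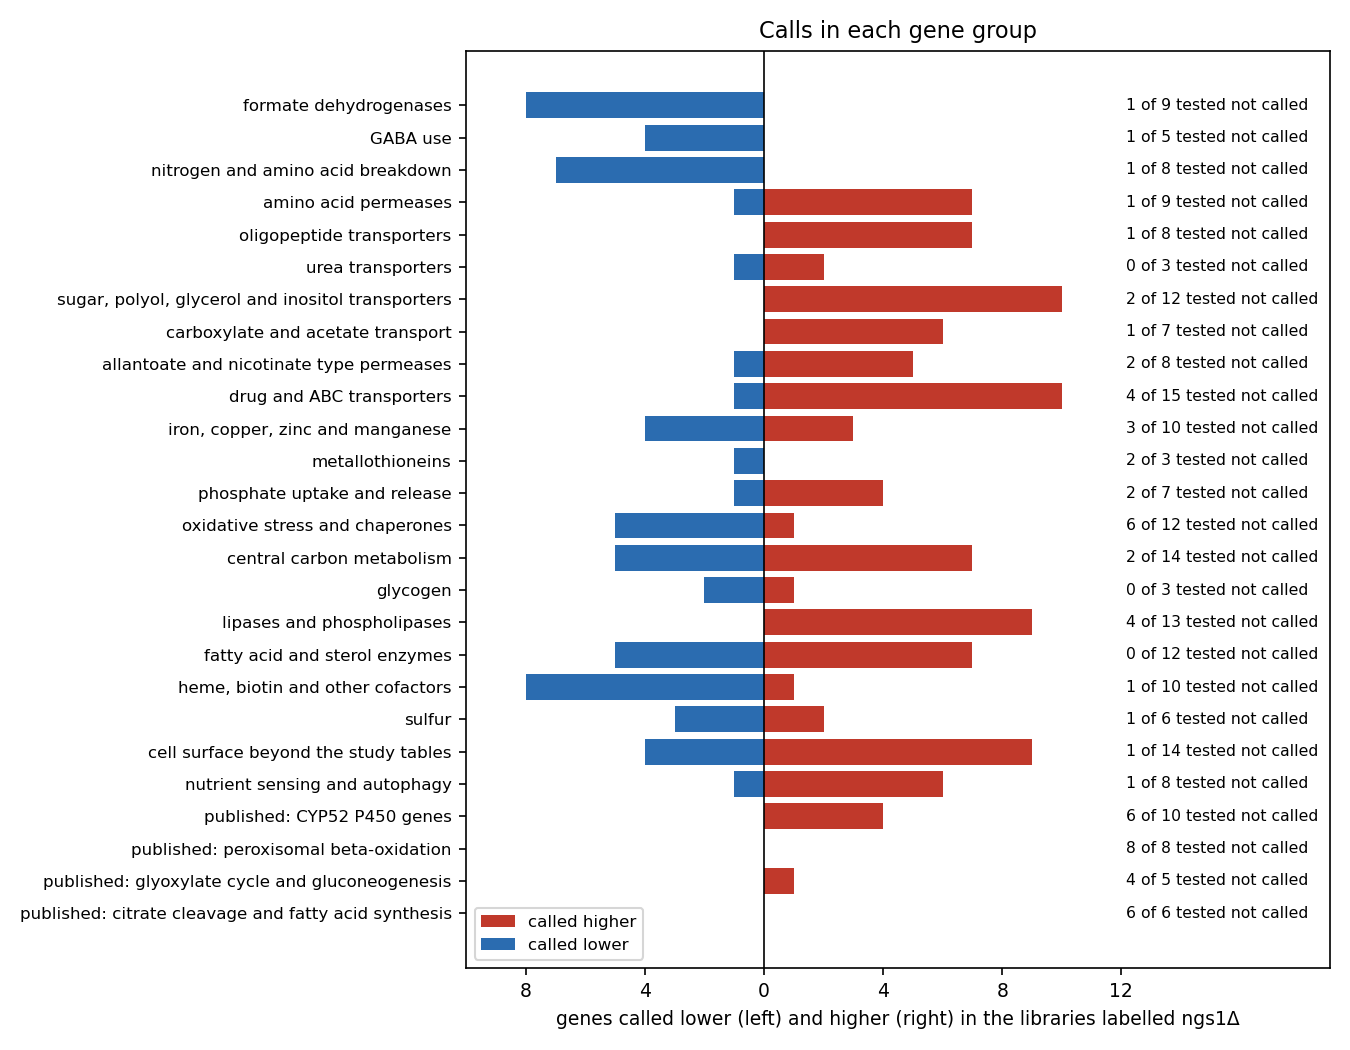
Bars give, for each gene list, the number of genes called higher (red, to the right) and lower (blue, to the left), with the number tested but not called at the right. Lists of breakdown enzymes lie on the left, most transporter lists on the right, and 3 of the 4 published lists at the bottom hold 0 or 1 called gene.

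The genes with the largest changes outside those tables were of several kinds. YALI0C19558, similar to the *C. albicans* RNA-binding protein Pbp2, had 0 counts in each wild-type library with 4NAG and 224, 106 and 77 counts in the labelled libraries, at least 50.5-fold more than a floor of 3 counts per wild-type library. YALI0D17292, which has no described similarity, went from 0.722, 0.513 and 0.954 CPM to 15.8, 36.8 and 20.6 CPM (log2 fold change 5.06, standard error 0.43, edgeR adjusted p = 0.00130). YALI0C23518, also without a described similarity, went from 1.13, 1.26 and 1.54 CPM to 42.5, 42.7 and 29.99 CPM (log2 fold change 4.86, standard error 0.22, edgeR adjusted p = 0.000285), high in all 3 labelled libraries. The Hxt17-like polyol transporter gene YALI0B06391 and the Rny1-like gene YALI0F25839, whose *Saccharomyces cerevisiae* relative is a vacuolar RNase, had log2 fold changes of 4.25 and 4.01, from levels under 1 CPM in every wild-type library. YALI0A20548 had 0.0516, 0.140 and 0.0530 CPM in the wild type and 4.15, 2.698 and 1.995 CPM in the labelled libraries. Among the falls, YALI0C12100, described by its part in amino acid transport across membranes, went from 13.9, 11.8 and 11.1 CPM to 1.06, 1.14 and 0.363 CPM (log2 fold change −3.83, standard error 0.35, edgeR adjusted p = 0.00136). YALI0C14696, with no described similarity, went from 3.04, 3.26 and 4.82 CPM to 0.266, 0.360 and 0.544 CPM (log2 fold change −3.24). These genes were chosen to have groups that did not overlap, so nothing is read from that, and 42.8% of all genes tested had such groups. The call held in all 6 fits that left out a library, apart from YALI0B06391, which was not called without wild-type replicate 2.

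Of the 9 formate dehydrogenase genes among the study's descriptions, 8 were called lower, beside 2.30% of all genes tested. They come from the study's lists of genes changed in these samples, so nothing is read from that count. Formate dehydrogenase oxidises formate to carbon dioxide with NAD+ as the acceptor and protects cells from formate. The 9 locus tags lie on chromosomes A, B, C, E and F. YALI0F28765, Yl*FDH1*, went from 30.4, 34.4 and 39.96 CPM to 4.84, 8.45 and 10.8 CPM (log2 fold change −2.12, standard error 0.30, edgeR adjusted p = 0.00542). The member with the most reads, YALI0A12353, went from 147, 145 and 129.5 CPM to 19.4, 39.9 and 55.3 CPM (log2 fold change −1.88, standard error 0.36, edgeR adjusted p = 0.0144). Labelled replicate 1 was lowest in both and replicate 3 highest, and no library overlapped the wild type. YALI0B19976 went from 31.3, 22.5 and 24.6 CPM to 1.91, 5.46 and 7.38 CPM (log2 fold change −2.41). YALI0C08074 went from 21.6, 17.6 and 13.8 CPM to 0.851, 3.66 and 5.14 CPM (log2 fold change −2.46). YALI0F13937 went from 14.7, 14.4 and 11.5 CPM to 0.798, 2.098 and 2.902 CPM (log2 fold change −2.82, standard error 0.42, edgeR adjusted p = 0.00587). YALI0E14256 had 9.85, 13.9 and 12.03 CPM in the wild type and 1.86, 1.26 and 1.45 CPM in the labelled libraries (log2 fold change −2.97, standard error 0.23, edgeR adjusted p = 0.00108). In YALI0E14256 labelled replicate 1 was the highest of the 3, and YALI0E15840 and YALI0F15983 also had another order than Yl*FDH1*. YALI0C14344 and YALI0E15840 had log2 fold changes of −1.38 and −2.42. The ninth gene, YALI0F15983, missed the threshold (3.35, 3.63 and 4.08 CPM against 1.06, 2.28 and 1.69 CPM, −1.14, edgeR adjusted p = 0.0502 for its log2 fold change), though its groups did not overlap either, as in 42.8% of all genes tested.

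With the vector in place of 4NAG the wild type had more formate dehydrogenase reads in 8 of these 9 genes: Yl*FDH1* stood at 41.4, 53.7 and 59.8 CPM there and YALI0A12353 at 209.6, 208 and 207 CPM, whereas YALI0E14256 stood at 8.96, 8.07 and 7.24 CPM, under its level with 4NAG. The median log2 fold change of the 9 in the labelled libraries was −2.41. Calls of lower genes numbered 3, 3 and 3 without wild-type replicate 1, 2 and 3. There were 8, 3 and 8 without labelled replicate 1, 2 and 3. Yl*FDH1*, YALI0F13937 and YALI0E14256 were called in each fit that left out 1 library. Reads of near-identical copies can be split between genes by the counting, which is not described, so the share of each member is uncertain.

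**Figure D4:**
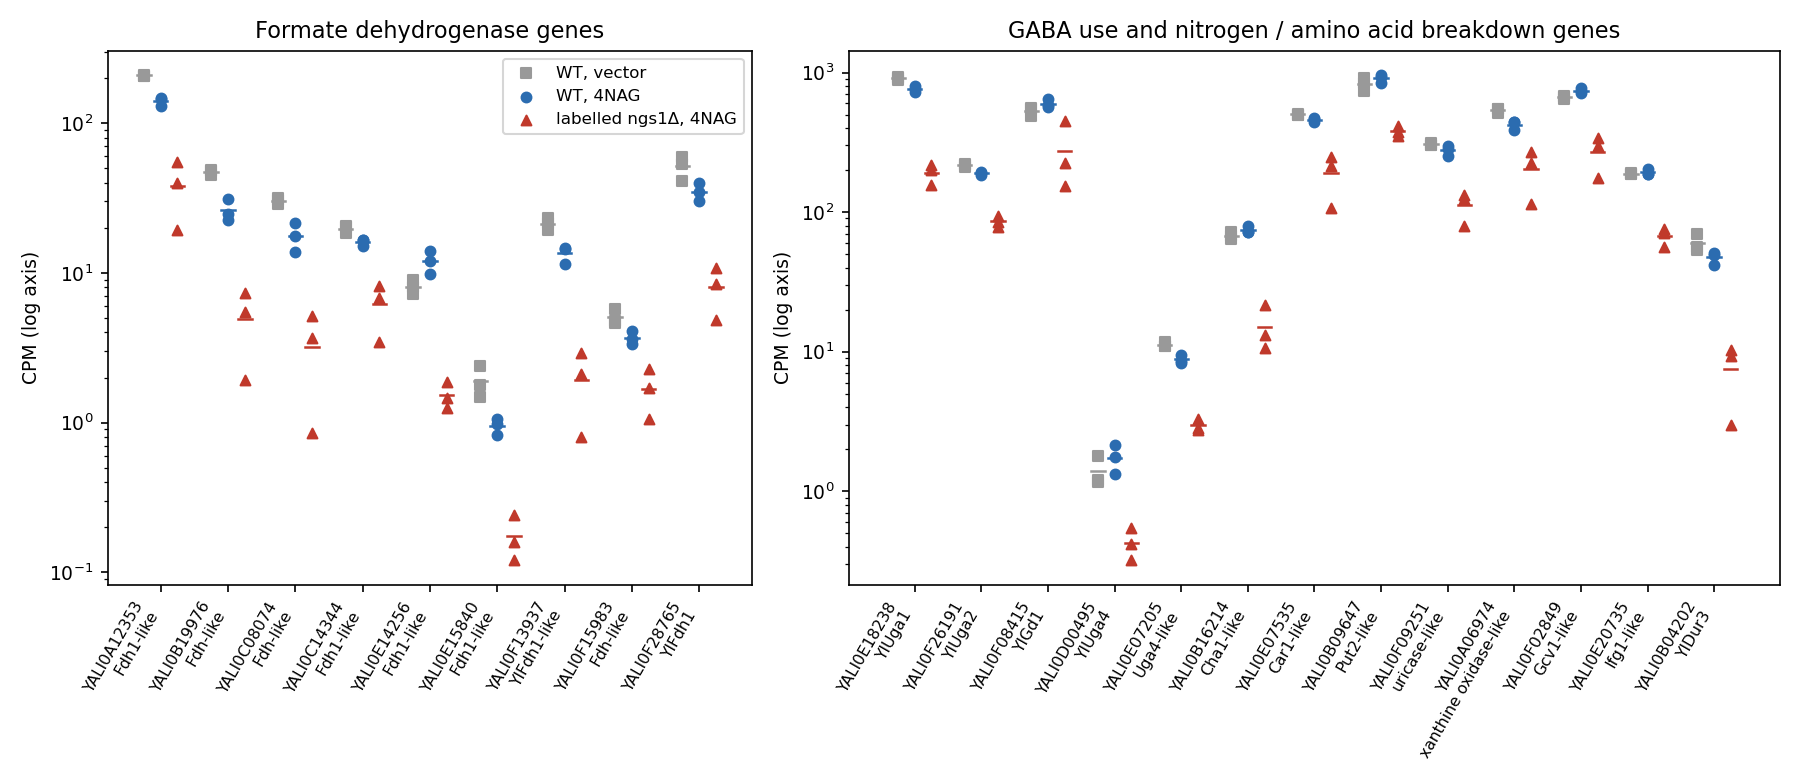
CPM (log axis) in each of 3 libraries of wild-type cells with vector (grey squares), wild-type cells with 4NAG (blue circles) and cells labelled Yl*ngs1*Δ with 4NAG (red triangles), with bars at the group means. Left, 9 formate dehydrogenase genes; right, 5 genes of GABA use and 8 of nitrogen and amino acid breakdown. In every gene all 3 red triangles lie under the 3 blue circles.

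Of 5 genes of GABA metabolism, 4 were called lower, beside 2.30% of all genes tested. GABA is taken up by permeases, and the transaminase Uga1 and the dehydrogenase Uga2 turn it into succinate and glutamate. Yl*UGA1* (YALI0E18238) went from 722, 763 and 800.4 CPM to 201, 156 and 217 CPM (log2 fold change −1.997, standard error 0.16, edgeR adjusted p = 0.00108) and Yl*UGA2* (YALI0F26191) from 184, 190.1 and 193 CPM to 93.6, 78.6 and 85.01 CPM (log2 fold change −1.15, standard error 0.10, edgeR adjusted p = 0.00136). The libraries of each group lay close together in both genes. The GABA permease gene Yl*UGA4* (YALI0D00495) and its relative YALI0E07205 also fell, the second from 8.35, 8.62 and 9.43 CPM to 3.297, 2.76 and 2.84 CPM (log2 fold change −1.57, standard error 0.17, edgeR adjusted p = 0.00248). Yl*UGA4* had few reads, 1.75, 2.14 and 1.33 CPM and 0.319, 0.420 and 0.544 CPM (log2 fold change −2.02). YALI0F08415, similar to the glutamate decarboxylase that makes GABA, had 583, 645 and 568 CPM in the wild type and 153, 224 and 447 CPM in the labelled libraries and was not called (log2 fold change −1.12, edgeR adjusted p = 0.0871), while it was called without labelled replicate 3 (log2 fold change −1.70). The median over the 5 genes was −1.57, and the number called lower was 3, 3 and 4 without wild-type replicate 1, 2 and 3. Leaving out labelled replicate 1, 2 and 3 gave 4, 3 and 5.

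Of 8 genes for the breakdown of nitrogen compounds and amino acids, Yl*DUR3* among them, 7 were called lower. The share over all genes tested was 2.30%. This list too comes from the study's changed genes, so nothing is read from that count. YALI0B16214, similar to the serine and threonine deaminase Cha1, went from 71.7, 79.7 and 72.5 CPM to 13.1, 21.5 and 10.6 CPM (log2 fold change −2.31, standard error 0.26, edgeR adjusted p = 0.00255). YALI0B09647, similar to the proline breakdown enzyme Put2, went from 959, 933 and 834 CPM to 375, 352 and 412 CPM (log2 fold change −1.26, standard error 0.13, edgeR adjusted p = 0.00199), and YALI0E20735, similar to a *C. albicans* D-amino acid oxidase, from 204, 188 and 187 CPM to 70.6, 56.2 and 75.3 CPM (log2 fold change −1.52, standard error 0.14, edgeR adjusted p = 0.00136). Each of these calls held when any library was left out. The uricase-like gene YALI0F09251 went from 295, 281 and 253 CPM to 80.1, 133 and 124 CPM (log2 fold change −1.301). YALI0F02849, similar to the glycine cleavage subunit Gcv1, went from 732, 773 and 708 CPM to 174, 298 and 338 CPM (log2 fold change −1.45). The arginase-like gene YALI0E07535 went from 439.9, 471 and 462 CPM to 107, 213 and 249 CPM (log2 fold change −1.26, edgeR adjusted p = 0.0308), with labelled replicate 1 far under the other 2, and its call was lost without any of wild-type replicates 1, 2 and 3 or labelled replicates 1 and 2 (log2 fold change −1.54 to −0.98). YALI0A06974, similar to a xanthine oxidase, had 442, 439 and 387 CPM against 115, 271 and 224 CPM and was not called (log2 fold change −1.05, edgeR adjusted p = 0.0555). The urea transporter gene Yl*DUR3* (YALI0B04202) completes this list, with a median of −1.37 over 8 genes. The genes called lower numbered 5, 5 and 6 without wild-type replicate 1, 2 and 3. When labelled replicate 1, 2 and 3 was left out, these counts were 6, 6 and 7. Outside the list, YALI0F11627, similar to cysteine dioxygenases, went from 17.9, 20.9 and 20.1 CPM to 4.95, 7.79 and 4.84 CPM (log2 fold change −1.75, standard error 0.22, edgeR adjusted p = 0.00371). YALI0F23749, an acyl-CoA dehydrogenase gene similar to a probable glutaryl-CoA dehydrogenase, went from 199.9, 191 and 217 CPM to 63.6, 44.4 and 64.4 CPM (log2 fold change −1.82, standard error 0.17, edgeR adjusted p = 0.00136). YALI0D20482, weakly similar to Gat1, a GATA factor that activates nitrogen genes in *S. cerevisiae*, went from 21.1, 19.2 and 16.96 CPM to 2.82, 6.29 and 5.99 CPM (log2 fold change −1.93, standard error 0.31, edgeR adjusted p = 0.00824), and the labelled libraries lay under the wild-type range in all 3 genes.

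Amino acid permease genes moved in both directions, and paralogs of the general permease Gap1 parted. Of the 9 genes, 7 were called higher and 1 lower, beside 5.36% and 2.30% of all genes tested. They too were taken from the study's changed genes, so nothing is read from these counts. Permeases of this kind carry amino acids through the plasma membrane with protons. YALI0C17237, described as Yl*GAP1*, went from 341, 361 and 327 CPM to 73.3, 67.2 and 97.8 CPM (log2 fold change −2.11, standard error 0.17, edgeR adjusted p = 0.00115). YALI0B19492, which carries the same description, went from 5.41, 8.62 and 8.69 CPM to 224, 49.9 and 35.4 CPM (log2 fold change 3.74, standard error 0.73, edgeR adjusted p = 0.0160). The first fell to a similar level in all 3 labelled libraries, whereas the second was several times higher in labelled replicate 1 than in replicates 2 and 3. The third Gap1-like gene, YALI0C09889, had 3.87, 3.03 and 4.13 CPM against 2.13, 0.600 and 2.12 CPM and was not called (log2 fold change −1.18, edgeR adjusted p = 0.110). YALI0D15422, similar to the proline permease Put4, went from 1.44, 1.96 and 2.07 CPM to 37.8, 18.3 and 9.43 CPM (log2 fold change 3.56, standard error 0.52, edgeR adjusted p = 0.00563). YALI0B20064, weakly similar to the dicarboxylic amino acid permease Dip5, went from 7.17, 7.78 and 10.6 CPM to 41.96, 64.1 and 40.4 CPM (log2 fold change 2.52, standard error 0.25, edgeR adjusted p = 0.00185). YALI0F25795, similar to the methionine permease Mup1, went from 89.2, 108 and 99.1 CPM to 387, 330.1 and 270.3 CPM (log2 fold change 1.73, standard error 0.15, edgeR adjusted p = 0.00136), YALI0F01254, similar to the arginine transporter Alp1, from 42.5, 53.9 and 47.97 CPM to 109, 159.8 and 152 CPM (log2 fold change 1.54), and Yl*AGP3* (YALI0E20713) from 79.2, 74.6 and 75.1 CPM to 215, 190.2 and 155 CPM (log2 fold change 1.28). A second Dip5-like gene, YALI0C00451, went from 169, 161 and 160.3 CPM to 865, 377 and 241 CPM (log2 fold change 1.58, edgeR adjusted p = 0.0432) and lost its call without any of the libraries except labelled replicate 3 (log2 fold change 0.92 to 1.89). YALI0B19492 was not called without wild-type replicate 1, 2 or 3 (2.49 to 4.13 over all 6 such fits), and the number of the 9 genes called higher was 5, 5 and 5 without wild-type replicate 1, 2 and 3. Without labelled replicate 1, 2 and 3 there were 6, 6 and 7, with 1 or 2 called lower in each of these fits.

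**Figure D5:**
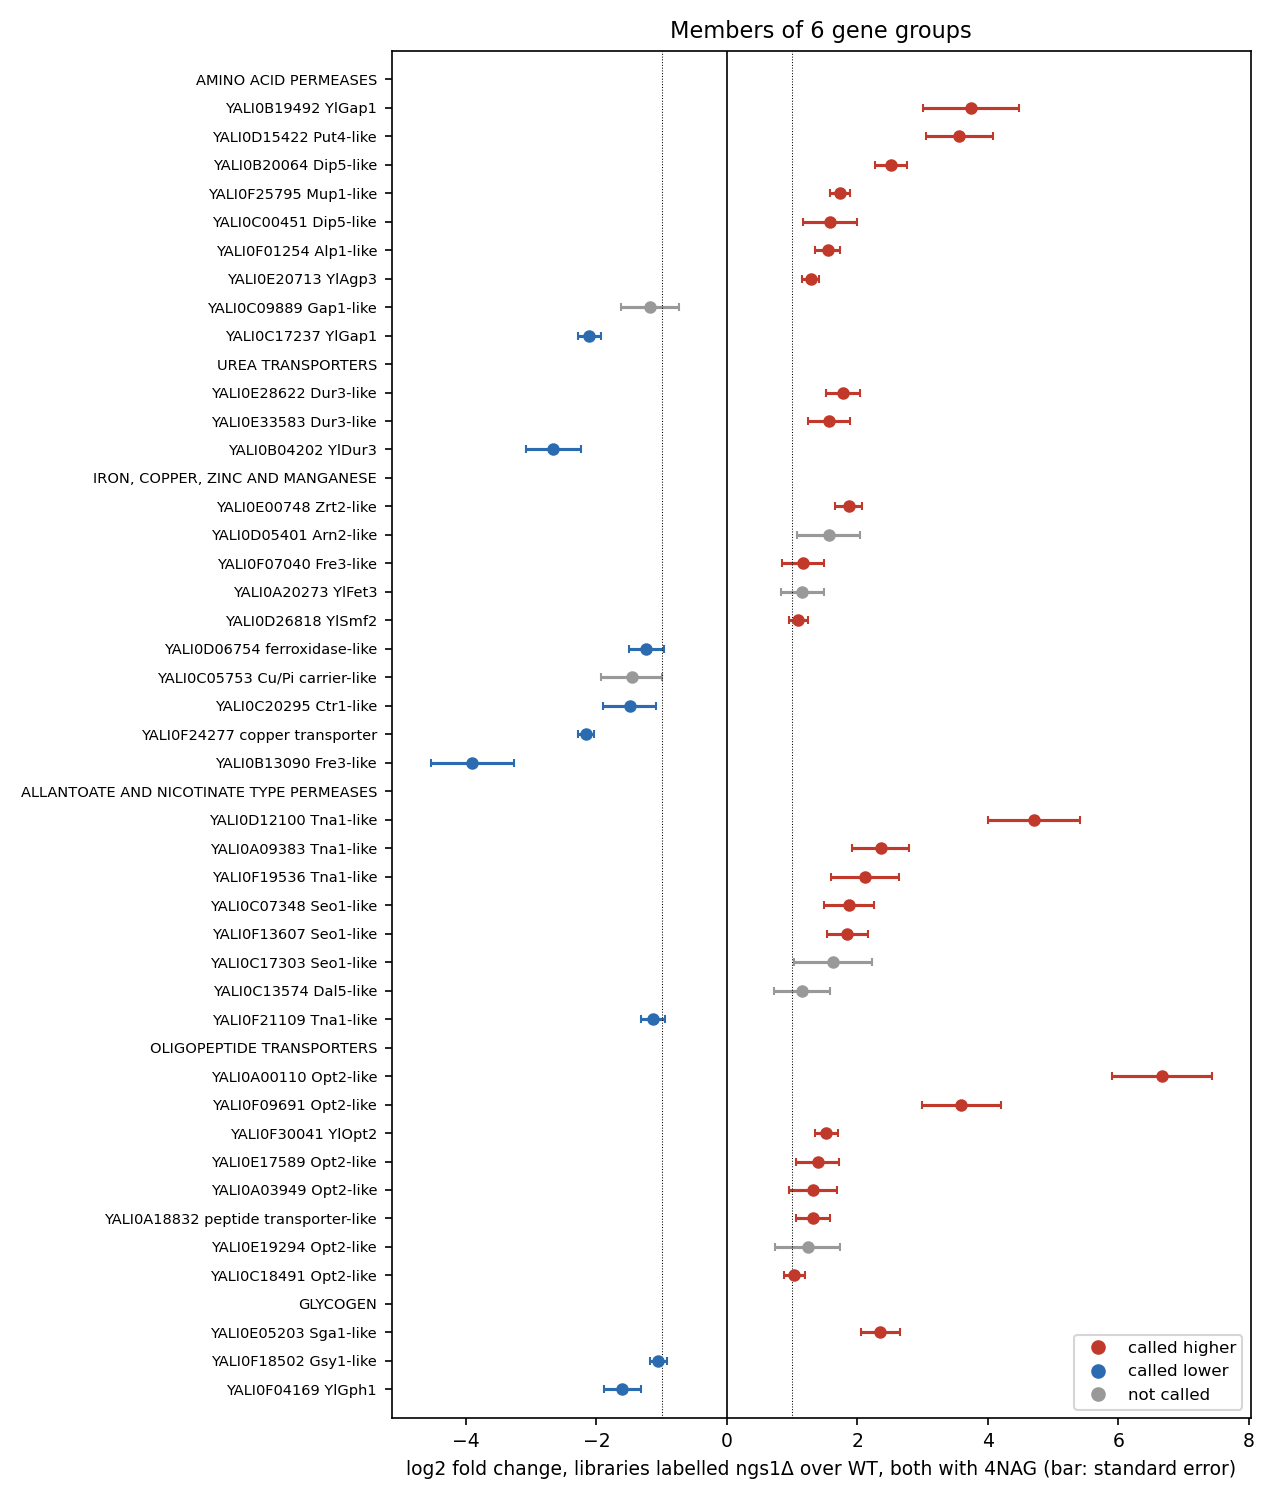
Log2 fold change in the libraries labelled Yl*ngs1*Δ over the wild type, both with 4NAG, with its standard error, for the tested members of 6 lists of transporter, metal and glycogen genes; red was called higher, blue lower and grey not called, and dotted lines mark a 2-fold change. The lists come from the study's own changed genes. Members with the same described relative, such as Gap1, Dur3, Fre3 or Tna1, lie on opposite sides of 0.

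Of the 9 peptide transporter genes 8 were tested. Of these, 7 were called higher and 0 lower, beside 5.36% and 2.30% of all genes tested. YALI0A00110 had the largest change, with 1.29, 0.746 and 1.54 CPM in the wild type and 216, 116 and 34.6 CPM in the labelled libraries, followed by YALI0F09691, from 0.361, 0.792 and 1.06 CPM to 16.2, 6.59 and 4.35 CPM, both similar to the oligopeptide transporter Opt2. The peptide transporter-like gene YALI0A18832 went from 1.29, 1.305 and 1.22 CPM to 3.94, 2.58 and 3.02 CPM (log2 fold change 1.31). Calls of higher genes numbered 2, 3 and 4 without wild-type replicate 1, 2 and 3. There were 6, 5 and 6 without labelled replicate 1, 2 and 3. YALI0A00110 and Yl*OPT2* (YALI0F30041) were called in all 6 fits that left out a library.

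Urea transporter genes were called in both directions. Dur3 carries urea into the cell. Yl*DUR3* (YALI0B04202) went from 49.2, 50.98 and 41.98 CPM to 2.98, 9.29 and 10.2 CPM (log2 fold change −2.66, standard error 0.42, edgeR adjusted p = 0.00796). Its relative YALI0E28622 went from 6.497, 5.54 and 4.24 CPM to 13.3, 21.5 and 21.04 CPM (log2 fold change 1.78, standard error 0.26, edgeR adjusted p = 0.00590) and YALI0E33583 from 0.567, 0.652 and 1.01 CPM to 2.02, 2.28 and 2.297 CPM (log2 fold change 1.56). Yl*DUR3* was thus lower and both relatives higher in every labelled library than in any wild-type library. Yl*DUR3* and YALI0E28622 were called in each fit that left out a library. YALI0E33583 was not called without wild-type replicate 1 or 2 or labelled replicate 2 (log2 fold change 1.39 to 1.83 over the 6 fits).

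Permeases of the allantoate and nicotinate type are a branch of the major facilitator superfamily. Of 8 tested, 5 were called higher and 1 lower, beside 5.36% and 2.30% of all genes tested. This list comes from the study's changed genes, so nothing is read from these counts. YALI0A09383, weakly similar to the nicotinic acid transporter Tna1, went from 67.7, 60.2 and 58.5 CPM to 564, 251 and 152 CPM (log2 fold change 2.36, standard error 0.44, edgeR adjusted p = 0.0135), and YALI0D12100, similar to *C. albicans* Tna1, from 0.464, 0.466 and 0.636 CPM to 27.6, 8.15 and 5.86 CPM (log2 fold change 4.703, standard error 0.70, edgeR adjusted p = 0.00609). The Tna1-like gene YALI0F21109 fell from 13.4, 10.1 and 13.9 CPM to 6.06, 5.28 and 5.804 CPM (log2 fold change −1.13, standard error 0.18, edgeR adjusted p = 0.00840). The Seo1-like gene YALI0F13607 went from 194, 213 and 219 CPM to 412, 917 and 921 CPM (log2 fold change 1.85, standard error 0.32, edgeR adjusted p = 0.0102). In the last gene labelled replicate 1 was the lowest of the 3, the reverse of YALI0A09383 and YALI0D12100. The genes called higher numbered 1, 1 and 2 without wild-type replicate 1, 2 and 3. Leaving out labelled replicate 1, 2 and 3 gave 5, 3 and 4, with 0 or 1 called lower in each, and YALI0D12100 held its call throughout.

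Of 12 transporter genes for sugars, polyols, glycerol and inositol, 10 were called higher and 0 lower. The shares over all genes tested were 5.36% and 2.30%. The groups did not overlap in any of the 12, as in 42.8% of all genes tested. YALI0F00462, similar to the aquaglyceroporin-like channel Aqy3, was the most abundant of those called and went from 367, 416 and 389.5 CPM to 2091, 1539 and 1162 CPM (log2 fold change 2.02, standard error 0.21, edgeR adjusted p = 0.00207). YALI0D01111, similar to the glycerol and proton symporter Stl1, went from 7.84, 8.48 and 8.43 CPM to 76.5, 36.1 and 29.6 CPM (log2 fold change 2.51, standard error 0.35, edgeR adjusted p = 0.00507). YALI0B01342, similar to a high-affinity glucose transporter of *Kluyveromyces lactis*, went from 36.6, 39.6 and 41.8 CPM to 281, 324 and 229 CPM (log2 fold change 2.82, standard error 0.15, edgeR adjusted p = 0.000368). Of these, YALI0B01342 was nearly even over the labelled libraries, and the other 2 were highest in replicate 1. YALI0C06424, similar to Snf3, went from 50.9, 63.7 and 57.8 CPM to 545, 200.1 and 179 CPM (log2 fold change 2.404, edgeR adjusted p = 0.0110). The myo-inositol transporter-like genes YALI0F18084 and YALI0D00132 went from 42.5, 53.5 and 51.7 CPM to 195, 131 and 113 CPM and from 13.2, 13.5 and 16.4 CPM to 59.6, 36.1 and 36.5 CPM (log2 fold changes 1.56 and 1.61), and the third, YALI0F23903, from 46.6, 51.7 and 45.5 CPM to 115, 98.98 and 79.8 CPM (log2 fold change 1.02). YALI0C16951, similar to the glycerophosphoinositol permease Git2 of *C. albicans*, went from 12.4, 13.05 and 11.6 CPM to 96.8, 70.4 and 52.5 CPM (log2 fold change 2.56, standard error 0.22, edgeR adjusted p = 0.00131). Glycerophosphoinositol is a product of phospholipid breakdown. Of the 2 members not called, YALI0E23287 had 461, 479.9 and 483 CPM in the wild type and 1471, 768 and 639 CPM in the labelled libraries (log2 fold change 1.001, edgeR adjusted p = 0.0556), and YALI0E05665 stayed under the fold threshold (log2 fold change 0.94). Genes called higher came to 7, 7 and 7 without wild-type replicate 1, 2 and 3. When labelled replicate 1, 2 and 3 was left out, these counts were 8, 9 and 11.

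Of 8 genes of carboxylate and acetate transport 7 were tested. Of these, 6 were called higher and 0 lower, beside 5.36% and 2.30% of all genes tested. The gene not tested, the monocarboxylate porter-like YALI0E05313, had 22, 10 and 20 counts in the wild type and 1, 7 and 3 in the labelled libraries. Gpr1 is a *Y. lipolytica* membrane protein known from the adaptation of cells to acetate. The gene YALI0C23617, described as Gpr1, went from 169.7, 177 and 171 CPM to 1274, 660.4 and 408 CPM (log2 fold change 2.16, edgeR adjusted p = 0.0105). YALI0C23298, with the same description, went from 1.13, 2.28 and 3.604 CPM to 121, 62.05 and 29.6 CPM (log2 fold change 4.898, edgeR adjusted p = 0.00377). The dicarboxylic acid transporter gene Yl*JEN2* (YALI0C15488) went from 32.1, 28.7 and 49.2 CPM to 844, 407 and 228 CPM (log2 fold change 3.73, edgeR adjusted p = 0.00442), and Yl*JEN1* (YALI0C21406) had 1.598, 1.77 and 2.703 CPM against 6.59, 4.796 and 2.48 CPM without a call. All of these levels were highest in labelled replicate 1 and lowest in replicate 3. The mitochondrial carriers Yl*YHM2* (YALI0B10736), which exchanges citrate and oxoglutarate, and Yl*DIC1* (YALI0B03344), which carries dicarboxylates, went from 123, 94.6 and 100.1 CPM to 374, 336 and 186 CPM and from 37.1, 35.9 and 34.8 CPM to 67.6, 106 and 90.4 CPM (log2 fold changes 1.49 and 1.29). Without wild-type replicate 1, 2 or 3, YALI0C23617 was not called (1.63 to 2.45 over the 6 fits), and the number called higher of 7 tested was 4, 3 and 3 without wild-type replicate 1, 2 and 3. Without labelled replicate 1, 2 and 3 there were 6, 5 and 6. With labelled replicate 1 alone YALI0E05313 had a log2 fold change of −3.925.

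Enzymes at the branch between pyruvate, acetaldehyde and ethanol changed in opposite directions. Pyruvate decarboxylase turns pyruvate into acetaldehyde, and alcohol dehydrogenases interconvert acetaldehyde and ethanol. Yl*PDC1* (YALI0D10131) went from 2258, 2619.6 and 2282 CPM to 193, 214 and 411 CPM. YALI0D06930, similar to the phenylpyruvate decarboxylase Aro10, went from 198, 220.1 and 208 CPM to 52.7, 72.1 and 92.6 CPM (log2 fold change −1.52, standard error 0.22, edgeR adjusted p = 0.00537). *ADH3* (YALI0A16379) went from 160.00, 199 and 256 CPM to 2035, 1559 and 1073 CPM (log2 fold change 2.91, standard error 0.28, edgeR adjusted p = 0.00161) and *ADH1* (YALI0D25630) from 15.3, 41.01 and 68.4 CPM to 401, 301 and 126 CPM (log2 fold change 2.71, standard error 0.61, edgeR adjusted p = 0.0252). *ADH3* was at least 4 times as high in every labelled library as in any wild-type library. *ADH1* varied in the wild type as well, and its call was lost without wild-type replicate 1 or 2 or labelled replicate 2 (log2 fold change 2.31 to 3.28). The ADH3-like gene YALI0A15147 was not called (log2 fold change −0.68, edgeR adjusted p = 0.117). Yl*PCK1* (YALI0C16995), whose enzyme makes phosphoenolpyruvate from oxaloacetate in gluconeogenesis, went from 995, 1145 and 1009 CPM to 3767, 4463 and 3249 CPM (log2 fold change 1.86, standard error 0.16, edgeR adjusted p = 0.00129). The malic enzyme-like gene YALI0E18634 fell from 537, 605 and 533 CPM to 93.5, 139 and 275 CPM (log2 fold change −1.71, edgeR adjusted p = 0.0252), while Yl*AAT2* (YALI0F29337), a cytosolic aspartate aminotransferase gene, went from 373, 386 and 377 CPM to 1323, 1322 and 804 CPM (log2 fold change 1.59, standard error 0.20, edgeR adjusted p = 0.00349). YALI0B18348, similar to the mannose-6-phosphate isomerase Pmi40, went from 108, 98.9 and 93.4 CPM to 253, 219 and 204 CPM (log2 fold change 1.16, standard error 0.12, edgeR adjusted p = 0.00185). The call of YALI0E18634 was lost without any wild-type library or labelled replicate 2 (−2.29 to −1.42), and Yl*PDC1*, *ADH3*, Yl*PCK1*, Yl*AAT2* and YALI0B18348 were called in all 6 fits.

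A further 4 lists came from gene assignments in the literature that the sources used here do not annotate, so their members are given as counts, beside 7.67% of all genes tested called in either direction. Of 5 genes of the glyoxylate cycle and gluconeogenesis, only Yl*PCK1* was called, and the list median was 0.013. Of 8 genes of peroxisomal beta-oxidation 0 were called by edgeR, and 0 by DESeq2, with log2 fold changes from −0.40 to 0.79 and a median of 0.18. Of 6 genes for citrate cleavage and fatty acid synthesis 0 were called by edgeR and 0 by DESeq2 (−0.30 to 0.62, median 0.15). At an unadjusted p under 0.05 and 2-fold these 2 counts were 0 and 0 as well. With labelled replicate 1 alone 1 of the 8 beta-oxidation genes was called higher. Of 12 genes of the alkane-oxidising CYP52 P450 family 10 were tested and 4 called higher, led in reads by *ALK1* (YALI0E25982), from 20.3, 17.4 and 18.8 CPM to 143, 55.5 and 51.9 CPM (log2 fold change 2.13, edgeR adjusted p = 0.0125). The number of P450 genes called higher was 1, 2 and 2 without wild-type replicate 1, 2 and 3. There were 4, 3 and 4 without labelled replicate 1, 2 and 3.

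Glycogen genes fell while a glucoamylase-like gene rose. Glycogen phosphorylase releases glucose units from stored glycogen, and glycogen synthase builds it. Yl*GPH1* (YALI0F04169), the phosphorylase gene, went from 479, 586 and 488 CPM to 142, 122 and 246 CPM (log2 fold change −1.61, standard error 0.28, edgeR adjusted p = 0.0109). YALI0F18502, similar to the glycogen synthase Gsy1, went from 1276, 1404 and 1177 CPM to 681, 568 and 615 CPM (log2 fold change −1.05, standard error 0.13, edgeR adjusted p = 0.00338). YALI0E05203, with some similarity to the glucoamylase Sga1 of *S. cerevisiae* sporulation, went from 26.3, 27.8 and 25.2 CPM to 82.5, 189.7 and 132 CPM (log2 fold change 2.35, standard error 0.30, edgeR adjusted p = 0.00374) and had its lowest labelled level in replicate 1. The call of Yl*GPH1* was lost without wild-type replicate 2 (log2 fold change −2.01 to −1.42 over the 6 fits) and that of YALI0F18502 without wild-type replicate 2 or labelled replicate 2 (−1.11 to −0.99).

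Of 14 lipase, phospholipase and sphingomyelinase genes 13 were tested. Of these, 9 were called higher and 0 lower, beside 5.36% and 2.30% of all genes tested. *LIP8* (YALI0B09361) went from 1.805, 2.98 and 4.56 CPM to 202, 169.8 and 102 CPM and *LIP1* (YALI0E10659) from 0.155, 0.792 and 0.795 CPM to 5.32, 5.396 and 3.204 CPM (log2 fold changes 5.65 and 2.97). The LIP1-like gene YALI0C00231 (3.92, 6.43 and 5.46 CPM against 2.07, 3.12 and 3.81 CPM, log2 fold change −0.82, edgeR adjusted p = 0.116) was not called. YALI0E31581, similar to the secreted acid sphingomyelinase Asm3 of *C. albicans*, went from 15.8, 11.6 and 13.3 CPM to 93.3, 167 and 91.1 CPM (log2 fold change 3.11, standard error 0.28, edgeR adjusted p = 0.00136), and its relative YALI0E34463 from 2.17, 1.91 and 1.696 CPM to 9.04, 3.66 and 4.59 CPM (log2 fold change 1.57, edgeR adjusted p = 0.0284). Sphingomyelinases cut a phosphorylated head group from sphingolipids. YALI0F06358, similar to the vacuolar phospholipase Atg15, went from 27.6, 35.9 and 32.7 CPM to 61.1, 169 and 188 CPM (log2 fold change 2.13, edgeR adjusted p = 0.0153), with labelled replicate 1 lowest of the 3, and the steryl ester hydrolase-like gene YALI0E00528 from 4.54, 4.19 and 4.08 CPM to 14.6, 12.4 and 11.7 CPM (log2 fold change 1.59). The number called higher was 5, 5 and 5 without wild-type replicate 1, 2 and 3. Leaving out labelled replicate 1, 2 and 3 gave 9, 6 and 10. Calls of lower genes came to 1 without labelled replicate 1, the Lip2-like YALI0F11429 (log2 fold change −3.12). With labelled replicate 1 alone YALI0C00231 had a log2 fold change of −1.38. YALI0F11429 had 27, 25 and 14 counts in the wild type and 15, 3 and 1 in the labelled libraries and was not called (−1.61, edgeR adjusted p = 0.160). The sphingomyelinase-like gene YALI0A16610, not tested, had 8, 23 and 20 counts in the wild type and 0, 5 and 1 in the labelled libraries. The genes *LIP8*, *LIP1*, YALI0E31581 and YALI0E00528 held throughout.

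Of 12 genes of fatty acid and sterol enzymes, 7 were called higher and 5 lower, beside 5.36% and 2.30% of all genes tested. Yl*OAR1* (YALI0F29975), similar to *C. albicans* Oar1, a 3-oxoacyl reductase of fatty acid metabolism, went from 79.5, 89.8 and 85.02 CPM to 3.56, 3.36 and 6.83 CPM (log2 fold change −4.21, standard error 0.30, edgeR adjusted p = 0.000874), and the labelled libraries lay far under every wild-type level. YALI0F02211, weakly similar to a dienoyl-CoA reductase, went from 71.3, 86.7 and 86.1 CPM to 2.39, 5.88 and 19.9 CPM (log2 fold change −3.11, edgeR adjusted p = 0.0239). Its Sps19-like relatives parted: YALI0D01694 went from 1.13, 1.58 and 2.07 CPM to 4.36, 3.78 and 3.33 CPM (log2 fold change 1.25) and YALI0F01650 from 19.95, 24.98 and 20.6 CPM to 12.6, 6.35 and 11.9 CPM (log2 fold change −1.09). The acyl-CoA synthetase-like genes YALI0E16016, similar to Fat1, and YALI0A15103, similar to Faa2, went from 359, 311 and 299.9 CPM to 828, 755 and 643 CPM and from 4.49, 6.24 and 6.84 CPM to 14.4, 15.5 and 15.6 CPM (log2 fold changes 1.19 and 1.37). YALI0D20878, similar to the sterol desaturase Erg3, went from 429, 523 and 524 CPM to 230.3, 204 and 296 CPM (log2 fold change −1.02). Genes called lower came to 3, 2 and 2 without wild-type replicate 1, 2 and 3. When labelled replicate 1, 2 and 3 was left out, these counts were 4, 2 and 5. The genes called higher numbered 2, 3 and 3 without wild-type replicate 1, 2 and 3. Without labelled replicate 1, 2 and 3 there were 6, 5 and 7. Yl*OAR1*, YALI0E16016 and YALI0A15103 were called in all 6 fits that left out a library.

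Metal transport genes moved in both directions, with 3 called higher and 4 lower of 10, beside 5.36% and 2.30% of all genes tested. Ferric reductases such as Fre3 reduce iron for uptake, multicopper ferroxidases oxidise it for the permease, and Ctr1 takes up copper. The Fre3-like gene YALI0B13090 went from 20.6, 15.98 and 20.2 CPM to 0.213, 0.959 and 2.66 CPM (log2 fold change −3.902, standard error 0.64, edgeR adjusted p = 0.00861), and the Fre3-like gene YALI0F07040 from 0.928, 0.792 and 1.38 CPM to 2.82, 1.98 and 2.18 CPM (log2 fold change 1.17, edgeR adjusted p = 0.0477). The ferroxidase-like gene YALI0D06754 went from 197, 230.2 and 195 CPM to 74.7, 63.3 and 125 CPM (log2 fold change −1.24), whereas Yl*FET3* (YALI0A20273) had 9.38, 8.67 and 6.996 CPM against 26.2, 20.02 and 10.1 CPM and was not called (log2 fold change 1.16, edgeR adjusted p = 0.0514). YALI0F24277, described by copper transport activity, went from 50.2, 53.96 and 56.5 CPM to 12.4, 11.3 and 12.21 CPM (log2 fold change −2.16, standard error 0.12, edgeR adjusted p = 0.000368), nearly even over the labelled libraries. The Ctr1-like gene YALI0C20295 went from 10.4, 13.2 and 13.1 CPM to 2.07, 4.14 and 6.83 CPM (log2 fold change −1.49), and the copper-binding metallothionein gene *MTP2* (YALI0C22394) from 400.3, 449 and 406 CPM to 149, 231 and 187 CPM (log2 fold change −1.15). In contrast, YALI0E00748, weakly similar to the zinc transporter Zrt2, went from 21.5, 25.4 and 22.6 CPM to 66.96, 109 and 77.1 CPM (log2 fold change 1.86, standard error 0.21, edgeR adjusted p = 0.00248). Yl*SMF2* (YALI0D26818), a divalent metal transporter gene, went from 266, 299 and 282 CPM to 670.3, 647 and 504 CPM (log2 fold change 1.096, standard error 0.14, edgeR adjusted p = 0.00373). YALI0F07040 was not called without any of the 6 libraries in turn (1.002 to 1.43), YALI0C20295 and YALI0D06754 not without any wild-type library or labelled replicate 2 (−2.01 to −1.15 and −1.62 to −1.05), and *MTP2* not without labelled replicate 1 (−0.997).

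Of 10 genes of heme, biotin and other cofactors, 8 were called lower and 1 higher, beside 2.30% and 5.36% of all genes tested. 5-Aminolevulinate synthase makes the first precursor of heme. YALI0E17545, weakly similar to Hem1, went from 32.7, 28.2 and 35.1 CPM to 5.26, 5.88 and 5.86 CPM (log2 fold change −2.501, standard error 0.15, edgeR adjusted p = 0.000439), and the more abundant 5-aminolevulinate synthase gene YALI0C06083 from 1726, 1809.7 and 1750.01 CPM to 759, 939 and 851 CPM (log2 fold change −1.05, standard error 0.13, edgeR adjusted p = 0.00373). Yl*BIO2* (YALI0D15400), the biotin synthase gene, went from 83.5, 70.8 and 103 CPM to 7.92, 6.95 and 11.7 CPM (log2 fold change −3.27, standard error 0.26, edgeR adjusted p = 0.00107). In each of these genes every labelled library lay under the lowest wild-type library. YALI0C06083 was not called without labelled replicate 1 (log2 fold change −0.972). YALI0F24409, weakly similar to the cytochrome c oxidase subunit Rcf2, fell from 586, 567 and 554 CPM to 64.1, 129 and 240.3 CPM (log2 fold change −1.97, edgeR adjusted p = 0.0256), widely spread over the labelled libraries. YALI0E20603, similar to a pyridoxine synthesis protein, fell from 372, 377 and 376 CPM to 118, 169 and 165 CPM (log2 fold change −1.32). The riboflavin synthesis gene YALI0E02288, similar to Rib1, went from 60.5, 60.2 and 63.3 CPM to 83.8, 184 and 205 CPM (log2 fold change 1.36, edgeR adjusted p = 0.0295). The call of YALI0E02288 was lost without any library except labelled replicate 1 (1.10 to 1.67), and the number called lower was 6, 6 and 5 without wild-type replicate 1, 2 and 3. There were 6, 6 and 7 without labelled replicate 1, 2 and 3, with 0 to 2 called higher in each.

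Of 12 genes of oxidative stress defence and chaperones, 5 were called lower and 1 higher, beside 2.30% and 5.36% of all genes tested. The groups did not overlap in any of the 12, as in 42.8% of all genes tested. Catalases break down hydrogen peroxide. YALI0E34265, similar to the catalase Ctt1, went from 337, 398 and 315 CPM to 9.73, 7.01 and 31.2 CPM (log2 fold change −4.45), and the second catalase gene, Yl*CTT1* (YALI0E34749), from 541, 560.00 and 562 CPM to 215, 209.9 and 311 CPM (log2 fold change −1.17, standard error 0.19, edgeR adjusted p = 0.00788). Yl*SOD2* (YALI0C16621), similar to the mitochondrial manganese superoxide dismutase, went from 2.78, 3.17 and 5.09 CPM to 0.479, 0.659 and 0.726 CPM (log2 fold change −2.56, standard error 0.37, edgeR adjusted p = 0.00550). YALI0E19448, weakly similar to the thiol peroxidase Dot5, went from 110.5, 104 and 97.8 CPM to 40.1, 50.5 and 54.5 CPM (log2 fold change −1.11). The glutathione transferase gene Yl*GST2* (YALI0F25575) rose from 4.28, 4.38 and 5.72 CPM to 12.23, 17.1 and 14.4 CPM (log2 fold change 1.602, standard error 0.21, edgeR adjusted p = 0.00404). Chaperone and stress genes with many reads lay lower in every labelled library but were not called: Yl*SSA3* (YALI0D22352) had 1615, 2088 and 1832 CPM against 423, 703 and 1381 CPM (log2 fold change −1.13, edgeR adjusted p = 0.104), and the Ddr48-like gene YALI0C17567 625, 529.8 and 474 CPM against 64.6, 199 and 317 CPM (log2 fold change −1.48, edgeR adjusted p = 0.0937). In both, labelled replicate 3 stood closest to the wild type. The number called lower was 5, 4 and 5 without wild-type replicate 1, 2 and 3. Leaving out labelled replicate 1, 2 and 3 gave 5, 5 and 10.

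Sulfur and phosphate genes had members on both sides. Yl*SSU1* (YALI0E24167), the sulfite pump gene, went from 127, 204 and 128 CPM to 16.8, 16.6 and 17.5 CPM (log2 fold change −3.18). YALI0F23551, similar to a thiosulfate sulfurtransferase, went from 266, 269 and 237 CPM to 79.6, 102 and 135 CPM (log2 fold change −1.28). YALI0B08140, similar to the sulfate assimilation enzyme Met16, went from 235, 219 and 246 CPM to 456, 925 and 896 CPM (log2 fold change 1.705, standard error 0.28, edgeR adjusted p = 0.00900), and YALI0B09977, similar to Met30, an F-box protein that controls sulfur genes in *S. cerevisiae*, from 56.8, 59.9 and 61.4 CPM to 113, 275 and 262 CPM (log2 fold change 1.87, edgeR adjusted p = 0.0113). Both were lowest in labelled replicate 1, near 456 and 113 CPM, and with that library alone their log2 fold changes were 0.93 and 0.90. The phosphate transporter-like genes YALI0A15125, similar to Pho84, and YALI0E23859, similar to Pho89, went from 16.96, 14.03 and 15.95 CPM to 37.7, 46.2 and 45.9 CPM and from 1.65, 1.77 and 1.27 CPM to 6.43, 5.995 and 2.18 CPM (log2 fold changes 1.46 and 1.62). YALI0D13156, weakly similar to Vtc5, a subunit for polyphosphate synthesis, went from 58.2, 64.9 and 63.7 CPM to 188, 163 and 139.7 CPM (log2 fold change 1.39, standard error 0.13, edgeR adjusted p = 0.00136). The acid phosphatase gene *PHO2* (YALI0C19866) fell from 3.197, 3.54 and 2.81 CPM to 0.372, 0.540 and 1.21 CPM (log2 fold change −2.17, edgeR adjusted p = 0.0171). The calls of YALI0E23859 and *PHO2* were lost without any wild-type library or labelled replicate 2 (1.38 to 1.95 and −2.83 to −1.85), that of YALI0B09977 without any wild-type library (1.66 to 2.18) and that of YALI0B08140 without wild-type replicate 1 or 2 (1.54 to 1.97).

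Of the 15 drug and ABC transporter genes tested, 10 were called higher and 1 lower, beside 5.36% and 2.30% of all genes. Yl*FLR1* (YALI0F25597), a drug exporter gene, went from 17.5, 11.98 and 17.8 CPM to 78.3, 77.8 and 60.7 CPM (log2 fold change 2.19, standard error 0.19, edgeR adjusted p = 0.00136). Yl*PDR15* (YALI0B12980), an ABC exporter gene, went from 9.23, 9.41 and 9.96 CPM to 41.7, 32.4 and 20.4 CPM (log2 fold change 1.71, standard error 0.25, edgeR adjusted p = 0.00550). Yl*YCF1* (YALI0F12089), whose *S. cerevisiae* relative carries glutathione conjugates into the vacuole, went from 73.5, 61.5 and 80.3 CPM to 291, 189.98 and 134 CPM (log2 fold change 1.503). The Aqr1-like genes parted, with YALI0C10208 going from 204, 204 and 195 CPM to 755, 485 and 501 CPM (log2 fold change 1.52, standard error 0.18, edgeR adjusted p = 0.00301) and YALI0E10483 from 23.2, 19.9 and 20.99 CPM to 12.9, 7.97 and 9.37 CPM (log2 fold change −1.09, standard error 0.19, edgeR adjusted p = 0.0113). Yl*STE6* (YALI0F20174) had 5.47, 7.36 and 8.53 CPM against 2.45, 4.68 and 3.26 CPM and was not called (log2 fold change −1.04, edgeR adjusted p = 0.0549). Calls of higher genes numbered 4, 4 and 5 without wild-type replicate 1, 2 and 3. When labelled replicate 1, 2 and 3 was left out, these counts were 10, 7 and 11, with 0 or 1 called lower in each. YALI0E10483 was not called without any wild-type library or labelled replicate 2 (−1.29 to −0.95), and Yl*YCF1* not without wild-type replicate 1 or 2 (1.18 to 1.71).

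Of 14 surface and secreted protein genes outside the paper's tables, 9 were called higher and 4 lower. The shares over all genes tested were 5.36% and 2.30%. YALI0A08360, weakly similar to the alkaline extracellular protease, went from 1.65, 1.68 and 2.44 CPM to 21.6, 11.5 and 9.31 CPM (log2 fold change 2.87, standard error 0.37, edgeR adjusted p = 0.00375) and was the only member called in all 6 fits that left out a library. YALI0D06149, similar to the lipid-binding secreted protein Pry1, went from 6.14, 7.27 and 6.47 CPM to 29.1, 14.4 and 13.5 CPM (log2 fold change 1.51, edgeR adjusted p = 0.0176). YALI0A06589, similar to the mannosyltransferase Ktr1, went from 21.4, 18.9 and 17.4 CPM to 69.2, 39.6 and 31.7 CPM (log2 fold change 1.27, edgeR adjusted p = 0.0225). The mucin-like gene YALI0E28831, weakly similar to *C. albicans* Msb2, stayed under 1 CPM in every library (0.206, 0.0466 and 0.212 against 0.638, 0.719 and 0.605 CPM) and lost its call without any of the 6 libraries (log2 fold change 1.61 to 2.34). Among the genes called lower, YALI0C10923, weakly similar to the aspartic protease Yps3, went from 3.87, 4.61 and 6.095 CPM to 1.22, 1.32 and 2.297 CPM (log2 fold change −1.59, edgeR adjusted p = 0.0209). The mannoprotein gene YALI0A15796, weakly similar to Dan4, fell from 2.73, 2.89 and 3.07 CPM to 1.01, 1.499 and 1.57 CPM (log2 fold change −1.09, edgeR adjusted p = 0.0358). YALI0C01411, similar to the glucan synthase Fks1, went from 1.75, 2.097 and 2.39 CPM to 0.745, 0.600 and 1.03 CPM (log2 fold change −1.39, edgeR adjusted p = 0.0286). The genes called higher numbered 1, 1 and 2 without wild-type replicate 1, 2 and 3. Without labelled replicate 1, 2 and 3 there were 6, 5 and 7. The genes called lower numbered 0, 0 and 0 without wild-type replicate 1, 2 and 3. There were 3, 0 and 4 without labelled replicate 1, 2 and 3.

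Of 6 genes similar to amino acid sensing and autophagy genes, 5 were called higher and 0 lower, beside 5.36% and 2.30% of all genes. They were listed with Yl*RAS1*, called higher, and the Gat1-like gene above, called lower. In *S. cerevisiae*, Ssy1 and Ptr3 sense amino acids outside the cell, Gcn2 and its partner Gcn1 sense uncharged tRNA, and Atg9 and Atg13 act in autophagy. The Ptr3-like gene YALI0D02673 went from 16.8, 23.8 and 20.6 CPM to 50.6, 46.9 and 37.7 CPM (log2 fold change 1.14, standard error 0.17, edgeR adjusted p = 0.00675) and the Gcn1-like gene YALI0D17732 from 134, 117 and 134 CPM to 358, 222 and 204 CPM (log2 fold change 1.02, edgeR adjusted p = 0.0193). The Gcn2-like gene YALI0B14949 went from 23.1, 24.9 and 24.6 CPM to 69.5, 44.3 and 34.3 CPM (log2 fold change 1.02, edgeR adjusted p = 0.0292) and the Ssy1-like gene YALI0D09295 from 2.94, 4.33 and 3.23 CPM to 9.52, 6.95 and 4.96 CPM (log2 fold change 1.02, edgeR adjusted p = 0.0498). These genes were highest in labelled replicate 1. The Atg9-like gene YALI0F08349 went from 34.8, 34.9 and 35.1 CPM to 62.3, 81.4 and 68.7 CPM (log2 fold change 1.02, standard error 0.14, edgeR adjusted p = 0.00430). It was not called without labelled replicate 2 (0.90 to 1.11 over the 6 fits that left out a library). The Atg13-like gene YALI0F03432 had 79.4, 82.8 and 85.7 CPM against 92.2, 207 and 215 CPM, with labelled replicate 1 close to the wild type, and was not called (log2 fold change 1.06, edgeR adjusted p = 0.0593). Yl*RAS1* (YALI0E08756), a GTPase gene of cyclic AMP signalling, went from 11.2, 10.7 and 9.96 CPM to 44.5, 32.8 and 31.6 CPM (log2 fold change 1.76, standard error 0.16, edgeR adjusted p = 0.00136). Genes called higher came to 3, 3 and 3 without wild-type replicate 1, 2 and 3. Leaving out labelled replicate 1, 2 and 3 gave 4, 3 and 6, over the 8 genes of the list.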

How the data were processed

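RNA-Seq counts of 3 libraries labelled Yl*ngs1*Δ with 4NAG and 3 of wild-type cells with 4NAG were compared, with 3 vector libraries as reference levels. Per gene, the authors deposited raw counts (whole numbers) and FPKM, and the FPKM were not used. The submitters' processing notes name mm10, a mouse build, along with Cufflinks 2.2.1 and TopHat2 2.1.1, and no source used here names the counting program, strand setting or annotation. Each of the 12 count columns matched 1 sample. In all, 6400 genes were listed, 24 of them not in every table.

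Counts were tested with edgeR 4.0.16 in R 4.3.3 (TMM, filterByExpr, quasi-likelihood test on the 6 libraries). A call meant 2-fold or more with p below 0.05 after Benjamini-Hochberg adjustment. CPM levels were scaled by TMM over 12 libraries. The standard error was taken from the fold change and the F statistic. The fit was also run on simulated data with the same spread in both groups. The labelled libraries differed from each other more than that, so the run does not test the fit for them. DESeq2 1.42.0 and limma 3.58.1 were alternatives, and figures were drawn in Python 3.11.15. Library totals ran from 17585457 to 21648468 counts, and what limits the precision of the fits was not tested.

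The members and lists were chosen with earlier results of these data known. Named genes were those of the label check, the 10 largest rises and 10 largest falls (called, groups not overlapping, mean count 20 or more in the higher group) outside the paper's tables of transcription factors and wall proteins, and, of each list, called members, members on both sides and the abundant members not called. Gene names and roles come from the paper and its supplementary descriptions, and 0 locus tags matched the reference gene table. Lists by protein similarity and promoter motifs were not made, since no protein or promoter table was used here. Columns of the authors' comparisons were not used. A few transporter genes are not reported here.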

Additional observations from a re-analysis of the deposited data

How the results depend on the processing

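Under every setting tried, the fitted changes of the 206 named genes kept their direction, except YALI0B21780, a Gcy1-like gene that was not called, whose log2 fold change was −0.018 with labelled replicate 1 alone. The counts of 324 higher and 139 lower genes stayed within 1.5 times under DESeq2 (374 and 172), DESeq2's size factors (322 and 141), no filter on low counts (319 and 145), a minimum mean count of 10 (320 and 138), all 12 libraries in 1 fit (329 and 146) and an unadjusted p (388 and 175). They became 662 and 414 without a fold threshold and 580 and 498 without labelled replicates 2 and 3. With limma and sample quality weights 210 genes were lower and 419 higher. Leaving out 1 library gave 177 to 385 higher genes and 71 to 232 lower ones; the causes were not tested. In all 6 of those fits 154 of the 324 and 60 of the 139 genes were called. The replicate numbers do not pair the samples: deviations of same-numbered libraries had correlations of 0.022, −0.13 and 0.052, and the fit with a replicate block called 287 higher and 142 lower genes, with 19 of the named genes losing a call and 6 gaining it. The motif alternative was not run, since no promoter table was used. Low genes, such as those under 1 CPM, rest on few counts.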

Other observations

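Some called genes lay next to each other by their locus tags. Of the 139 genes called lower, 10 (7.19%) had a neighbour in the list of tags that was also called lower, in 4 runs. Of the 324 called higher, 64 (19.8%) had a neighbour called higher, in 31 runs. Of all genes tested 2.30% were called lower and 5.36% higher. The share of neighbours expected from these was not computed, so nothing is read from the counts. They include genes of the paper's tables, such as YALI0E18722 and YALI0C23452. The longest run was of 4 genes called lower: YALI0F01584, similar to a bacterial triosephosphate isomerase, from 24.9, 22.3 and 24.2 CPM to 4.68, 4.62 and 7.74 CPM; YALI0F01606, similar to the dihydroxyacetone kinase Dak1 of *Schizosaccharomyces pombe*, from 26.7, 31.5 and 26.2 CPM to 4.47, 2.58 and 4.41 CPM; YALI0F01628, linked to carbohydrate metabolism, from 15.2, 13.7 and 13.5 CPM to 5.58, 3.96 and 4.17 CPM; and the Sps19-like gene YALI0F01650, from 19.95, 24.98 and 20.6 CPM to 12.6, 6.35 and 11.9 CPM. Their log2 fold changes were −2.07, −2.88, −1.63 and −1.09. The wild type with vector held similar levels, 27.5, 25.9 and 26.01 CPM for YALI0F01606. The first 2 were called in every fit that left out a library, and YALI0F01650 was lost without any wild-type library or labelled replicate 2 (−1.25 to −0.84). Other pairs of neighbours called higher were the drug exporter gene Yl*FLR1* (YALI0F25597) with the glutathione transferase gene Yl*GST2* (YALI0F25575), and the Pho84-like gene YALI0A15125 with the Faa2-like gene YALI0A15103. How reads of overlapping neighbours were assigned is not given, and these runs were noticed after the values were seen.

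The order of the labelled libraries was not the same in all genes. Labelled replicate 1, with 1 Yl*NGS1* count, was nearest to the wild type in 24.1% of the genes called higher and 20.1% of those called lower. Among those named, the Met16-like gene YALI0B08140, the Met30-like gene YALI0B09977, the Atg15-like gene YALI0F06358, the Rib1-like gene YALI0E02288 and the Seo1-like gene YALI0F13607 had this order, with levels in replicates 2 and 3 that differed by less than their distance from replicate 1. The Gcy1-like gene YALI0B21780, not called, had 43.4, 37.4 and 39.8 CPM in the wild type and 40.6, 128 and 138 CPM in the labelled libraries, so that replicate 1 lay within the wild-type range.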
